A study of Drosophila melanogaster with 81 samples.

Results

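Peaks of 6 histone modifications were examined next to the centromeres of chromosome arms 2L, 3L and 3R of Drosophila melanogaster (genome build dm6). A peak belonged to the set when it started at or beyond position 20513712 on 2L or 25110227 on 3L, or ended at or before position 3000000 on 3R, in a peak list of HisC or w1118 embryos. The 3 windows each take in about 3 Mb at the centromere end of the assembled arm. Of 233093 peaks in 26 lists, 9303 met the rule, 5832 in HisC lists and 3471 in w1118 lists. By arm, 4285 lay on 2L, 2244 on 3L and 2774 on 3R. Joined across lists, they made 1458 separate places that covered 2204.56 kb. Over the lists, the member closest to the border lay 452 to 244463 bp inside it on 2L, and the closest peak outside lay 4565 to 191202 bp away.

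HisC embryos were homozygous for the deficiency Df(2L)HisC, which takes away the cluster of replication-dependent histone genes, the genes that supply new histones during DNA replication. They also carried the transgenes P{GAL4-twi.2xPE}, a driver built on twist promoter elements, and P{UAS:eYFP}AH2, and were picked by eYFP expression. The labels of the HisC H3K27me3 libraries at 4.5-5 h name the deficiency alone. The w1118 embryos were the wild-type strain, without deficiency or transgenes. Genotype, strain background, transgenes and selection therefore cannot be told apart. Whole embryos were collected over 30 minutes of egg laying at 25°C and aged to 3.5 to 4, 4.5 to 5 or 5.5 to 6 h. H3K4me3 was mapped at all 3 times and the other marks at the last 2, by CUT&Tag, in which an antibody tethers a transposase that tags the DNA around the mark. Each group of 2 or 3 libraries had 1 list of peak positions without heights, so no spread between replicates could be computed and no difference below was tested. Whether a wider or more frequent peak reflects more signal, deeper sequencing or more cells with the mark cannot be told apart in these lists.

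The DNA next to the centromeres is pericentric heterochromatin, which is rich in repeats, packaged with H3K9-methylated nucleosomes and HP1, and known for silencing genes that are moved into it. Genes that live there, such as light and rolled, are unusual in needing that surrounding. Many of them have very long introns filled with transposon remnants. H3K4me3 marks the starts of active genes, H3K27ac active promoters and enhancers, H3K36me3 the bodies of transcribed genes, and H3K27me3 the domains held silent by Polycomb proteins. The acetylations H2AK9ac and H2BK16ac sit on histones H2A and H2B and are less well studied. The windows held 423 annotated genes, 289 of them protein-coding, and these were spread very unevenly. The 2L window held 386 genes, 111 of which were the histone genes that the deficiency removes, and its outer part is gene-rich unique DNA. The 3L window held 29 genes with 15 coding, and the 3R window 8 genes with 2 coding, the very long Myo81F and Pzl.

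H3K27ac showed the widest gap between the genotypes. In HisC lists 767 of 9889 H3K27ac peaks at 4.5-5 h lay in the windows, or 7.76% (95% Clopper-Pearson interval 7.24 to 8.30). In w1118 lists at the same age 287 of 9668 lay there, or 2.97% (2.64 to 3.33). At 5.5-6 h the shares were 6.93% in HisC (658 peaks) and 2.62% in w1118 (228 peaks). The HisC share was thus 2.61-fold and 2.65-fold that of w1118, with list totals that were alike. H3K36me3 followed, with 4.33% in HisC (334 peaks) and 2.28% in w1118 (139 peaks) at 4.5-5 h, and 4.05% in HisC (303) and 2.17% in w1118 (118) at 5.5-6 h. These were ratios of 1.90 and 1.87. Both marks passed the bar used here for a call, at least 1.5-fold in 1 direction at both of the last 2 times. The intervals cover counting error only.

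The other active marks differed less. H2AK9ac had 5.30% of its peaks in the windows in HisC and 3.67% in w1118 at 4.5-5 h, and 5.90% in HisC and 4.84% in w1118 at 5.5-6 h. H2BK16ac had 5.30% in HisC and 4.49% in w1118 at the first of these times, and 5.27% in HisC and 4.34% in w1118 at the second. H3K4me3 had 2.46%, 3.58% and 2.81% in HisC at 3.5-4, 4.5-5 and 5.5-6 h, and 2.21%, 2.34% and 2.41% in w1118. The HisC share of H3K4me3 was 1.53-fold that of w1118 at 4.5-5 h but 1.17-fold at 5.5-6 h, so it was not called. The H3K4me3 list of HisC at 3.5-4 h is marked by name as having something left out, without saying what, and no call rests on it.

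H3K27me3 went the other way. In HisC 1.75% of its peaks lay in the windows (146 of 8320) and in w1118 2.87% (132 of 4605) at 4.5-5 h. At 5.5-6 h the shares were 1.38% in HisC (115 of 8313) and 2.72% in w1118 (125 of 4588). The ratios were 0.612 and 0.508. The counts themselves were close, and the HisC lists were longer elsewhere in the genome. By covered length the ratios were 0.974 and 0.710, and with peaks of at least 500 bp 0.670 and 0.517, and the call was lost under each of these.

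**Figure D1:**
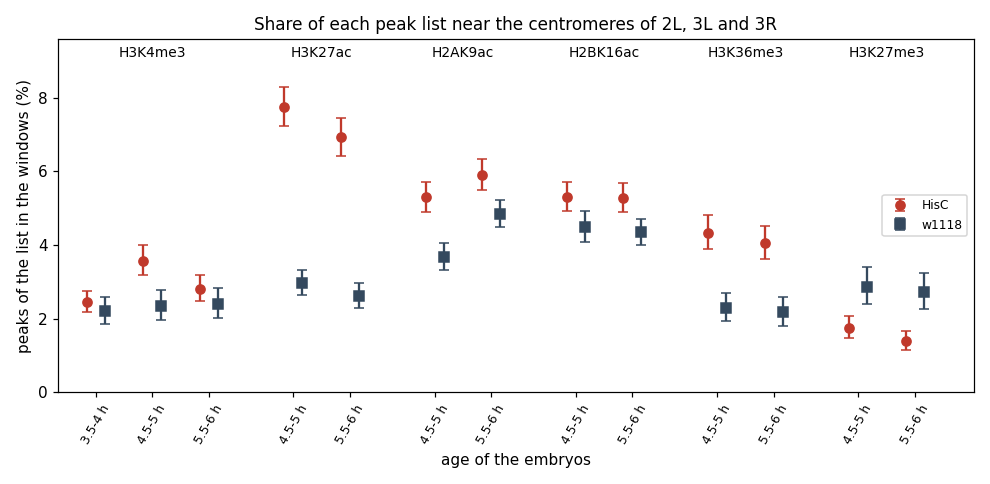
Share of the peaks of each list that lay in the 3 windows (vertical axis, %), by mark and age of the embryos, for HisC (circles) and w1118 (squares); bars are 95% Clopper-Pearson intervals and cover counting error only. H3K27ac stands at 7.76% and 6.93% in HisC, against 2.97% and 2.62% in w1118, and H3K27me3 is lower in HisC at both ages.

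A like difference was not limited to the windows. Among stretches of 3 Mb elsewhere on the main chromosomes with at least 20 w1118 peaks at both times, 6.98% (3 of 43) passed the same bar for H3K27ac. They were the first and second stretch of 2R, which begins at its centromere, and the part of 3L just outside the window. In the first stretch of 2R, HisC had 277 and 262 peaks, against 39 and 28 in w1118. On 3L beyond the border, HisC had 114 and 97 peaks and w1118 33 and 21. The minimum of w1118 peaks left out the first stretch of Y. There HisC had 55 and 66 H3K27ac peaks and w1118 18 and 5, or 2.99-fold and 12.1-fold by share. For H3K36me3 0 of 41 stretches passed and 2.44% (1 of 41) were lower in HisC. The minimum had left out the stretches of 2R and 3L nearest to the centromere and the first of Y. In the first stretch of 2R, HisC had 137 and 120 H3K36me3 peaks and w1118 11 and 9, and on 3L beyond the border HisC had 42 and 38 and w1118 7 and 10. On Y, HisC had 42 and 40 and w1118 19 and 14, or 1.75-fold and 2.08-fold by share. The excess of H3K36me3 thus also went beyond the windows. For H3K27me3 9.52% (4 of 42) were lower in HisC and 7.14% (3 of 42) higher, with the same stretches of 2R and 3L left out. In the first stretch of 2R, HisC had 72 and 28 H3K27me3 peaks and w1118 8 and 7. That is a share 4.98-fold and 2.21-fold as high, opposite to the windows. On 3L beyond the border HisC had 16 and 9 and w1118 17 and 22, or 0.521-fold and 0.226-fold by share. For H2AK9ac and H2BK16ac, which were not called in the windows, 2.27% (1 of 44 each) were higher. For H3K4me3, also not called there, 0 of 41 were higher, with the same stretches of 2R, 3L and Y left out. On 2R the HisC share of H3K4me3 was 10.5-fold and 7.57-fold that of w1118, which had 8 and 8 peaks. On 3L beyond the border it was 2.12-fold at both times, with 12 and 9 w1118 peaks. On Y it was 2.48-fold and 1.45-fold.

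The excess of H3K27ac and H3K36me3 sat on 3L and 3R. On 3R, HisC had 236 and 209 H3K27ac peaks at 4.5-5 and 5.5-6 h, against 30 and 19 in w1118, a share 7.69-fold and 10.1-fold as high. On 3L, HisC had 260 and 224 peaks and w1118 50 and 40, or 5.08-fold and 5.14-fold by share. On 2L the ratios were 1.28 and 1.22. Within 2L the gene-rich side away from the centromere, beyond the histone genes, had 90 and 85 H3K27ac peaks in HisC and 100 and 79 in w1118. The centromere side had 181 and 140 in HisC and 107 and 90 in w1118. The gap between the genotypes was thus smallest in the unique DNA of 2L and widest on 3R.

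H3K36me3 was likewise close on 2L and apart on the other arms. On 3R, HisC had 114 and 107 peaks, against 24 and 20 in w1118, or 3.75-fold and 3.89-fold by share. On 3L, HisC had 85 and 63, against 16 and 10 in w1118, or 4.20-fold and 4.58-fold, and on 2L the share ratios were 1.08 and 1.10. H3K4me3 peaks on 3L numbered 73 and 50 in HisC and 12 and 12 in w1118. With 3L and 3R alone, H3K4me3 passed the bar for a call as well, at 2.06-fold and 1.51-fold, in a comparison added after the values were seen.

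Position within the arms set the lists of 3R apart. In w1118 most 3R members of H3K4me3, H3K27ac, H3K36me3 and H3K27me3 lay in the innermost 500 kb, next to the centromere. For H3K27me3 this held in HisC too, with 22 of 39 and 23 of 31 peaks there, against 31 of 42 and 31 of 44 in w1118. For H3K36me3 it was 21 of 24 and 18 of 20 peaks in w1118, against 24 of 114 and 28 of 107 in HisC. In the outer 2.5 Mb, HisC had 90 and 79 H3K36me3 peaks and w1118 had 3 and 2. For H3K27ac the outer count was 195 and 175 in HisC and 10 and 4 in w1118. The innermost 500 kb itself differed less, with 41 and 34 H3K27ac peaks in HisC and 20 and 15 in w1118. H2AK9ac and H2BK16ac were spread along the whole window in both genotypes, so the outer stretch was not empty in w1118. H2AK9ac had 180 and 205 peaks there in HisC, against 75 and 193 in w1118.

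**Figure D2:**
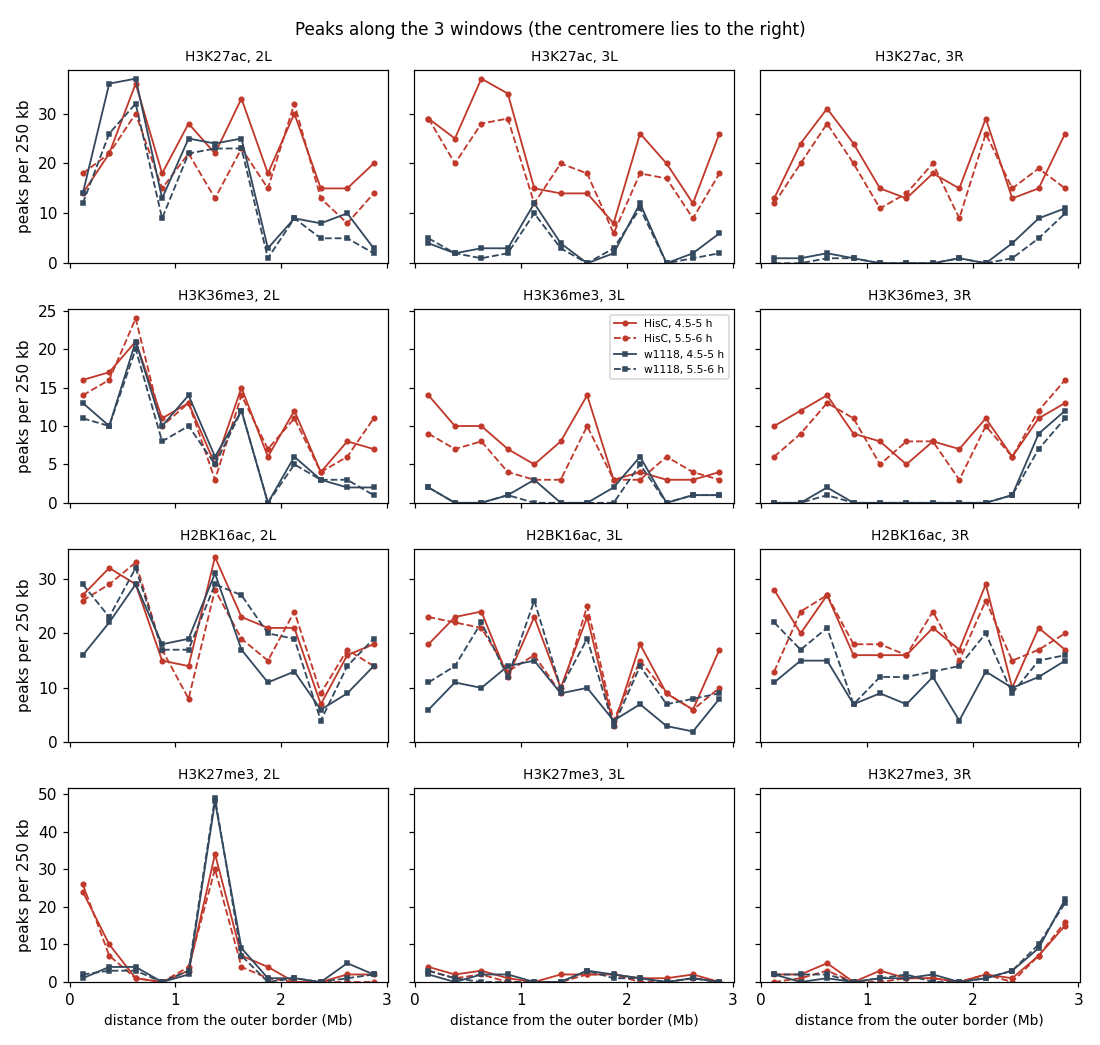
Number of peaks per 250 kb (vertical axes) against the distance from the outer border of each window (horizontal axes, Mb; the centromere lies to the right), for 4 marks (rows) and 3 arms (columns). HisC is drawn with circles and w1118 with squares, solid at 4.5-5 h and dashed at 5.5-6 h. On 3R the w1118 lines of H3K27ac and H3K36me3 leave the floor only near the centromere, while those of HisC run along the whole window.

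The H2A and H2B acetylations had different counts at the 2 ages. In HisC 618 H2AK9ac peaks lay in the windows at 4.5-5 h and 702 at 5.5-6 h, and in w1118 385 and 634. For H2BK16ac the counts were 681 and 645 in HisC and 434 and 583 in w1118. H3K27ac was lower at 5.5-6 h than at 4.5-5 h in both genotypes, by count and by share. Within a genotype, 67.4% of the HisC H3K27ac members at 4.5-5 h were overlapped by the list of 5.5-6 h, and 76.3% the other way round. In w1118 it was 70.0% and 86.4%. The rest of the genome was not far off, with 71.3% and 70.6% in HisC and 78.0% and 82.2% in w1118.

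Few of the HisC members met a w1118 peak of the same mark. Of HisC H3K27ac members 17.6% (4.5-5 h) and 15.8% (5.5-6 h) were overlapped by w1118, against 41.2% and 49.4% of HisC peaks in the rest of the genome. The reverse shares were 48.1% and 47.4% of w1118 members, against 39.0% and 48.6% elsewhere. On 3R only 23 of 236 and 12 of 209 HisC H3K27ac peaks met one, whereas 26 of 30 and 16 of 19 w1118 peaks were met by HisC. HisC lists on 3R thus held most of the w1118 peaks and many more. On 3L this did not hold. There 22 of 50 and 8 of 40 w1118 H3K27ac peaks were met by HisC, and 21 of 260 and 8 of 224 HisC peaks by w1118. Of w1118 H3K36me3 peaks, 4 of 16 and 4 of 10 were met by HisC on 3L, and 23 of 24 and 20 of 20 on 3R. For H3K36me3, 26.6% and 28.7% of HisC members were overlapped by w1118, against 65.4% and 65.9% elsewhere in the genome.

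Most of these HisC places carried another mark in w1118. Of HisC H3K27ac members with no w1118 H3K27ac peak at either of the last 2 times (616 and 524), 63.0% and 63.0% overlapped a w1118 peak of some other mark, against 84.0% and 82.4% elsewhere. These were mainly H2AK9ac (49.7% and 49.6%, against 60.5% and 58.4% elsewhere) and H2BK16ac (50.6% and 52.1%, against 59.3% and 57.7% elsewhere). H3K36me3 was there in w1118 for 6.82% and 4.58%, against 46.2% and 40.2% elsewhere. H3K4me3 was there for 4.55% and 2.10%, against 13.5% and 13.1% elsewhere. All of these shares were lower in the windows, that of H3K36me3 by the widest margin. Outside the windows, then, a HisC-only H3K27ac peak often lay on DNA with H3K36me3 in w1118, and inside the windows it rarely did. Among HisC H3K36me3 members with no w1118 counterpart (242 and 210), 70.7% and 64.8% overlapped w1118 H2AK9ac and 73.1% and 68.1% overlapped w1118 H2BK16ac. Elsewhere these shares were nearly the same, at 71.5% and 66.5% for H2AK9ac and 71.3% and 66.4% for H2BK16ac.

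Bins of 10 kb gave the same picture by position for H3K27ac and H3K36me3. Of 898 bins in the windows, 273 (30.4%) held an H3K27ac peak in HisC at both of the last 2 times and in w1118 at neither, where 8.32% of all bins on the main chromosomes did. The reverse held for 16 bins (1.78%), with 5.61% over all bins. By arm the HisC-only bins numbered 49 of 299 on 2L, 112 of 299 on 3L and 112 of 300 on 3R. For H3K36me3, 121 bins (13.5%) were HisC-only, where 6.12% were so over all bins, and 17 (1.89%) were w1118-only, with 2.01% over all bins. Lists were also cut to equal numbers of their widest peaks. The HisC-only count of H3K36me3 was then 67 (7.46%, with 3.69% over all bins). That of H3K4me3 was 21 (2.34%, with 2.98%) and that of H3K27me3 13 (1.45%, with 9.12%), and H3K27ac had 29.1% (with 7.86%). H2AK9ac had 55 HisC-only bins (6.12%, with 2.63% over all bins) and 17 w1118-only (1.89%, with 2.82%). H2BK16ac had 57 HisC-only (6.35%, with 2.95%) and 21 w1118-only (2.34%, with 2.67%). HisC-only bins of these 2 acetylations were thus also above the share over all bins, although neither mark was called by share of peaks. With equal list sizes they were 6.35% (with 2.79%) for H2AK9ac and 5.35% (with 3.00%) for H2BK16ac. H3K4me3 had 67 HisC-only bins (7.46%), near its share of 7.41% over all bins, and 4 w1118-only (0.445%, with 0.626%). H3K27me3 had 30 HisC-only (3.34%), well under the 17.3% over all bins, and 22 w1118-only (2.45%, with 3.2%). Bins with a peak at both times in both genotypes were scarcer in the windows than over all bins for every mark, for H3K27ac 11.4% against 27.8%.

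The bins overlapped between marks. Of the 121 HisC-only H3K36me3 bins, 98 (81.0%) were also HisC-only for H3K27ac, which is 35.9% of the 273 H3K27ac bins. Outside the windows it was 257 of 720 (35.7%), or 29.5% of 870 H3K27ac bins. Of the 67 HisC-only H3K4me3 bins, 54 (80.6%) were HisC-only for H3K27ac, which is 19.8% of the H3K27ac bins. Outside it was 287 of 952 (30.1%), or 33.0% of the H3K27ac bins there. In w1118, 203 of the 273 bins (74.4%) held an H2BK16ac peak at 1 or both times, against 85.1% of the 870 outside, and 9 (3.30%) held H3K36me3, against 27.9% outside.

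**Figure D3:**
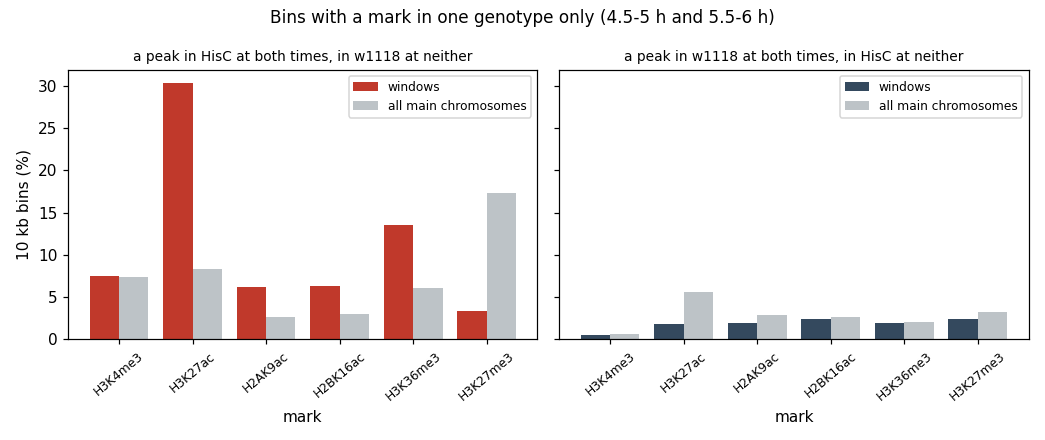
Percentage of 10 kb bins (vertical axis) with a peak in one genotype at 4.5-5 h and 5.5-6 h and in the other at neither, by mark. The left panel shows HisC-only bins and the right panel w1118-only bins, in the windows (coloured) and over all main chromosomes (grey). H3K27ac HisC-only bins reach 30.4% in the windows, against 8.32% over all.

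Myo81F takes up most of the 3R window. It encodes a myosin heavy chain relative and spans 1965.86 kb of 3R (567076 to 2532932). In HisC it held 160 of the 236 and 144 of the 209 H3K27ac peaks of the 3R window at 4.5-5 and 5.5-6 h. These shares were close to the part of that window that the gene spans. In w1118 it held 9 of 30 and 4 of 19. The H3K27ac peaks covered 5.68% and 6.02% of its length in HisC and 0.206% and 0.0954% in w1118. H3K36me3 covered 63921 and 53949 bp of the Myo81F body in HisC (3.25% and 2.74%), against 1435 and 897 bp in w1118. H3K4me3, a mark of gene starts, made 24, 54 and 31 peaks in Myo81F in HisC at the 3 times and 2, 5 and 2 in w1118, although no list had H3K4me3 within 2000 bp of either end of Myo81F. H2AK9ac peaks there were 145 and 160 in HisC and 59 and 147 in w1118. At the ends of Myo81F the order was reversed. H2BK16ac within 2000 bp of them came to 935 and 0 bp in HisC and 3230 and 3123 bp in w1118, and H2AK9ac to 428 and 286 bp in HisC and 2021 and 3202 bp in w1118. Within 500 bp of the ends, H3K27ac, H2AK9ac and H2BK16ac were w1118-only. H3K27me3 covered 12533 and 6855 bp of the body in HisC and 8573 and 7865 bp in w1118, with no common direction at the 2 times.

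Pzl, a gene for a relative of the mechanosensitive channel Piezo, crosses the border of the 3R window (2554162 to 3263582), and its values are for the whole gene. It held 41 and 39 H3K27ac peaks in HisC and 2 and 0 in w1118. H3K36me3 peaks in Pzl numbered 26 and 17 in HisC and 0 and 0 in w1118. H2BK16ac peaks in Pzl numbered 59 and 42 in HisC and 31 and 48 in w1118, so the acetylation of H2B was present in both genotypes.

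Another pair of long genes lies on 3L. The gene lovit, which encodes a transporter needed for histamine supply in photoreceptors, spans 434.041 kb (3L, 25236940 to 25670980). It held 48 and 41 H3K27ac peaks in HisC, against 3 and 3 in w1118. H3K36me3 covered 22658 and 12943 bp of lovit in HisC (5.22% and 2.98%) and 0 bp at both times in w1118. The gene l(3)80Fg spans 215.672 kb and held 37 and 30 H3K27ac peaks in HisC and 4 and 3 in w1118. Near its ends the order was the other way round, with 930 and 709 bp of H3K27ac within 2000 bp in HisC and 1884 and 1891 bp in w1118. In l(3)80Fg more H3K27ac thus lay within the gene in HisC and more at its ends in w1118.

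Over all members the location differed in the same sense. In HisC 11.3% and 11.9% of H3K27ac members lay within 500 bp of a gene end, against 36.9% and 43.0% in w1118. Inside genes, away from the ends, lay 54.5% and 54.0% in HisC and 34.5% and 27.2% in w1118. More of the HisC members lay on 3L and 3R, where few genes are annotated, so these figures mix arms. On 2L alone the gaps were smaller, with 28.4% and 30.7% at gene ends in HisC and 46.4% and 52.1% in w1118. Inside genes on 2L lay 39.9% and 38.2% in HisC and 35.3% and 28.4% in w1118. At gene ends the rest of the genome differed in the same direction by less, with 38.9% and 41.9% of HisC peaks and 53.0% and 57.3% of w1118 peaks. Inside genes in the rest lay 50.8% and 47.7% of HisC peaks and 37.5% and 33.1% of w1118 peaks. That gap was wider than on 2L and narrower than over all members. On 3R 1 HisC peak at each time, of 236 and 209, lay at a gene end.

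Counts of genes marked at their ends did not mirror the bins. For H3K27ac, 13 of 423 genes (3.07%) had a peak within 500 bp of an end in HisC at both times and in w1118 at neither, where 2.47% of all 17807 genes did. The reverse held for 50 genes (11.8%), against 12.3% of all genes. The 111 histone genes could not be called, as they had no peak in any list. Of the other 312 genes, the 13 HisC-only ones for H3K27ac were 4.17%, and both this and the share of the 50 w1118-only ones lay somewhat above the shares over all genes. For H3K36me3 over at least 50% of the gene body, 2 genes (0.473%) were HisC-only, with 1.2% over all genes. They were ppk13 and the long noncoding RNA CR46123, named here because so few were found. A further 17 (4.02%) were w1118-only, with 6.12% over all genes.

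The remaining marks gave small gene counts. H3K4me3 was HisC-only at 8 genes and w1118-only at 7, with 2.39% and 1.84% over all genes. H2AK9ac was HisC-only at 13 and w1118-only at 10, with 3.22% and 3.77% over all genes. H2BK16ac was HisC-only at 11 and w1118-only at 9, with 4.14% and 3.03% over all genes. H3K27me3 was HisC-only at 3 and w1118-only at 7, with 2.4% and 1.98% over all genes. Without the histone genes, the highest of these shares was 4.17% of 312 genes, for H2AK9ac in HisC, and each of the 8 was below 1.5 times the share over all genes.

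Of 18 symbols listed as classical genes of heterochromatin, 9 lay in the windows. They were lt, cta, RpL5, Set1, FASN3, vtd, RpL15, Dbp80 and eIF4B. At gene ends H3K4me3 was present in all 4 lists of the last 2 times for 5 of the 9, and 0 changed sides. H3K27ac at the ends was w1118-only for RpL5, lt and Set1 and HisC-only for 0. H3K36me3 over the body was w1118-only for RpL5 and RpL15 and HisC-only for 0. H3K27me3 covered at least 50% of the body of 0 of them in any genotype.

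Of 7 symbols listed as very long genes of heterochromatin, 4 lay in the windows, namely Myo81F, Pzl, lovit and Ir40a. Apart from the ends of Myo81F, 1 change of sides was found in them, H3K27ac at Ir40a, which was HisC-only. Ir40a spans only 24.851 kb, less than l(3)80Fg and Dbp80, which were not on that list. Of 6 symbols listed as chromatin genes, Set1 and vtd lay in the windows, and H3K27ac at Set1 was the only change of sides between them.

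Set1 showed the widest gap in H3K27ac near gene ends among the classical genes. It encodes a methyltransferase that places H3K4 methylation and starts just outside the 3L border (25107594 to 25115180). Its values are for the whole gene, and its inner end overlaps the gene MED21. H3K27ac within 2000 bp of its ends came to 166 and 164 bp in HisC and 2713 and 1981 bp in w1118. The HisC values come from a peak at each time that began inside the gene, 800 and 798 bp outside the border. Each peak reached the 2000 bp limit, so any part beyond that was not counted. H3K36me3 covered 0 bp of Set1 at both times in HisC and 2701 and 5710 bp in w1118. The w1118 peaks behind these values were not members. The closest w1118 H3K36me3 members began 10893 and 10453 bp inside the border, beyond the gene. H3K4me3 near its ends differed less, with 856, 926 and 1052 bp in HisC and 1722, 1138 and 1264 bp in w1118. Set1 therefore kept an H3K4me3 peak in every list.

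The gene vtd encodes the cohesin subunit Rad21 (3L, 27136525 to 27157999). H3K36me3 covered 0 bp of vtd at both times in HisC and 3968 and 4504 bp in w1118. H3K27ac near the ends of vtd had no common direction, with 1261 and 1266 bp in HisC and 0 and 2084 bp in w1118. The gene lt encodes a vesicle-trafficking protein of the HOPS complex. It had 0 bp of H3K36me3 in HisC and 1408 and 2862 bp in w1118. H3K27ac near the ends of lt was 581 and 802 bp in HisC and 1105 and 1729 bp in w1118. The gene cta, for the G-protein subunit Concertina used in gastrulation, had 0 bp of H3K36me3 in HisC and 327 and 1073 bp in w1118.

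RpL5 and RpL15 encode proteins of the large ribosomal subunit. H3K36me3 covered 691 and 2075 bp of RpL5 in HisC, against 2570 and 3507 bp in w1118. It covered 0 and 468 bp of RpL15 in HisC, against 837 and 1191 bp in w1118. H3K4me3 near the ends of RpL5 was 1497, 1488 and 1485 bp in HisC and 2153, 1505 and 1515 bp in w1118, so it was almost the same at the last 2 times and shorter in HisC at the first. The translation factor gene eIF4B had no H3K27ac near its ends in HisC and 774 and 1333 bp in w1118. FASN3, a fatty acid synthase gene, had no H3K27ac, H3K36me3 or H3K4me3 near its ends or body in either genotype.

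Dbp80, a DEAD-box RNA helicase gene of 142.844 kb, was the exception in direction. H3K36me3 covered 2930 and 3293 bp of it in HisC and 971 and 1795 bp in w1118. H3K27ac near its ends was 2125 and 1883 bp in HisC and 1100 and 1519 bp in w1118. Over its whole length it held 22 and 18 H3K27ac peaks in HisC and 4 and 2 in w1118. It is the longest of the 9, and in this it resembled lovit and l(3)80Fg.

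**Figure D4:**
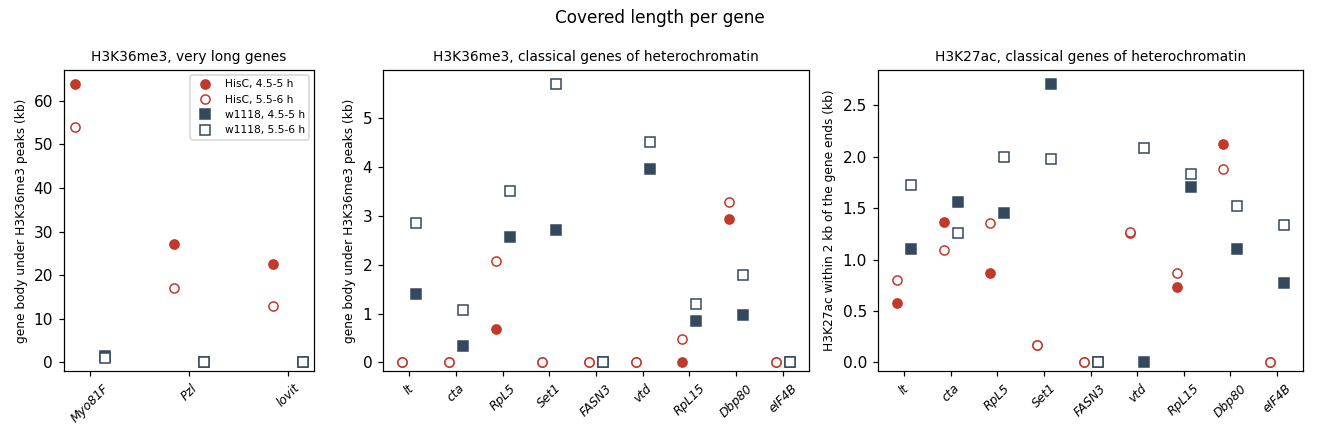
Length covered by peaks per gene (vertical axes, kb) in HisC (circles) and w1118 (squares), filled at 4.5-5 h and open at 5.5-6 h. The left panel shows H3K36me3 over the bodies of 3 very long genes, the middle panel H3K36me3 over the 9 classical genes of heterochromatin, and the right panel H3K27ac within 2 kb of their ends. Myo81F, Pzl and lovit are covered almost only in HisC, over 2.39% to 5.22% of their length, while Set1, vtd, lt and cta have H3K36me3 only in w1118.

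Among all genes of the windows, H3K36me3 covered more bp of the body in HisC at both times for 31 genes (7.33%, with 10.5% over all genes). It covered more in w1118 for 61 (14.4%, with 21.2% over all genes). Of the 312 genes other than histone genes these were 9.94% and 19.6%, close to the shares over all genes. The genes with the largest differences towards HisC, in bp and not in share of the gene, were Myo81F, Pzl, lovit, l(3)80Fg and cad. Those towards w1118 were Set1, vtd, Slmap, Nhe2 and brun. Slmap, which encodes a protein of the STRIPAK kinase and phosphatase complex, had 473 and 487 bp in HisC and 2844 and 3066 bp in w1118. Nhe2, a sodium and proton exchanger gene, had 0 and 734 bp in HisC and 3664 and 2223 bp in w1118.

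For H3K27ac near gene ends, Fs(2)Ket, Set1, Slmap, Mtp and sky were furthest towards w1118. Fs(2)Ket encodes importin beta and had 1376 and 1624 bp in HisC and 3394 and 4252 bp in w1118. The gene sky, for a GTPase-activating protein of synaptic vesicles, had 0 bp in HisC and 1748 and 1539 bp in w1118. Towards HisC stood among others Ir40a, ppk13, CycK and the small RNA gene sncRNA:254, which lies inside eEF2. Ir40a encodes a receptor of humidity-sensing neurons and had 2814 and 3116 bp in HisC and 0 bp in w1118 at both times. Its H2AK9ac was present in both genotypes, at 225 and 2605 bp in HisC and 2153 and 2104 bp in w1118.

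Gene ends in the 2L window also differed in the other acetylations and in H3K4me3. Clamp encodes a zinc finger protein that binds GA repeats, among them those in the histone gene cluster. Near its ends H2AK9ac covered 1852 and 2344 bp in HisC and 0 bp in w1118 at both times. H2BK16ac near the ends of Clamp covered 1673 and 661 bp in HisC and 0 bp in w1118. H3K4me3 there covered 2671, 2569 and 2719 bp in HisC and 1835, 1612 and 1737 bp in w1118. All 3 marks were thus wider over the ends of Clamp in HisC at every time mapped.

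The other genes furthest towards HisC in H2AK9ac were step, Noc2, TM9SF2 and sncRNA:254. The gene step, for a cytohesin that activates Arf GTPases, had 1715 and 1169 bp of H2AK9ac near its ends in HisC and 0 bp in w1118 at both times. In H2BK16ac they were E2f2, Cul2, eEF2 and vtd. E2f2, a repressor of the E2F family, had 1387 and 741 bp of H2BK16ac near its ends in HisC and 0 bp in w1118. Furthest towards w1118 after Myo81F stood nolo, Cyp6t2Psi, del and Fs(2)Ket in H2AK9ac and CarT, tsh, Gr39b and Itgbn in H2BK16ac. At nolo, which encodes a secreted ADAMTS-like protein, H2AK9ac covered 381 and 0 bp in HisC and 2118 and 965 bp in w1118. At the pseudogene Cyp6t2Psi it covered 0 bp in HisC at both times and 993 and 552 bp in w1118. Gene ends without a peak in one genotype at both times were thus found in each direction.

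H3K4me3 was also wider in HisC at eEF2, the translation elongation factor gene, with 2919, 2655 and 2753 bp in HisC and 1884, 1298 and 1325 bp in w1118. At Mondo, a sugar-sensing transcription factor gene, it was 2433, 2351 and 2432 bp in HisC and 1649, 1423 and 1426 bp in w1118. At vari it was 1385, 818 and 1501 bp in HisC, against 2460, 2297 and 2759 bp in w1118. Of 13 genes listed as genes of unique DNA in the 2L window, 7 lay in it. Of these, tsh, tio, Lamp1, Df31, step, Hr39 and CG8665, 5 had H3K27ac at their ends in all 4 lists and 0 changed sides in H3K27ac. In H2AK9ac step was HisC-only, and in H2BK16ac CG8665 was w1118-only, the only changes of sides in that list. Lamp1, a lysosomal membrane protein gene close to the histone genes, had 558 and 382 bp of H3K27ac near its ends in HisC and 1910 and 1959 bp in w1118.

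A large group of the H3K27me3 members of 2L lay around tsh and tio. These neighbouring genes encode zinc finger transcription factors of trunk and appendage patterning and are a known Polycomb target. Between the start of tsh and the end of tio (2L, 21828593 to 22025734) lay 28 of 87 and 25 of 73 H3K27me3 peaks of the 2L window in HisC, against 41 of 77 and 42 of 71 in w1118. They covered 35.6 and 34.5 kb in HisC, against 81.5 and 87.8 kb in w1118, which is 18.1% and 17.5% of the span in HisC and 41.4% and 44.6% in w1118. The longest single peak was 3576 and 3425 bp in HisC and 12316 and 12480 bp in w1118. The domain was thus present in both genotypes, in fewer and shorter pieces in HisC. Shorter H3K27me3 peaks in HisC were not particular to it. Outside the windows their median width was 778 and 924 bp in HisC and 1643 and 1581 bp in w1118.

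Within that span the bodies of the genes themselves differed less than the DNA between them. H3K27me3 covered 2369 and 3433 bp of tsh in HisC and 3996 and 5000 bp in w1118. It covered 3650 and 3502 bp of tio in HisC and 4325 and 3297 bp in w1118. H3K4me3 peaks between tsh and tio numbered 25, 11 and 12 in HisC at the 3 times and 7, 5 and 7 in w1118. H3K27ac peaks there numbered 18 and 12 in HisC and 18 and 19 in w1118.

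At the outer edge of the 2L window the order of H3K27me3 was reversed. Hr38, a nuclear receptor gene (20683462 to 20714588), had 7396 and 7674 bp under H3K27me3 in HisC and 0 bp in w1118 at both times. The gene cad, for the homeodomain protein Caudal that patterns the posterior embryo, was covered in both genotypes, by 8951 and 10274 bp in HisC and 10336 and 11252 bp in w1118. H3K36me3 covered 1950 and 2302 bp of cad in HisC and 0 bp in w1118. H3K4me3 near the ends of cad was 1633, 412 and 265 bp in HisC and 1484, 1361 and 1141 bp in w1118. Over all genes of the windows, H3K27me3 covered more bp of the body in HisC at both times for 14 (3.31%, with 13.1% over all genes) and more in w1118 for 23 (5.44%, with 6.55% over all genes), or 4.49% and 7.37% of the 312 genes other than histone genes. On the far side of the histone genes as a whole, H3K27me3 had 35 and 34 peaks in HisC and 9 and 8 in w1118, and on the centromere side 52 and 39 in HisC and 68 and 63 in w1118.

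**Figure D5:**
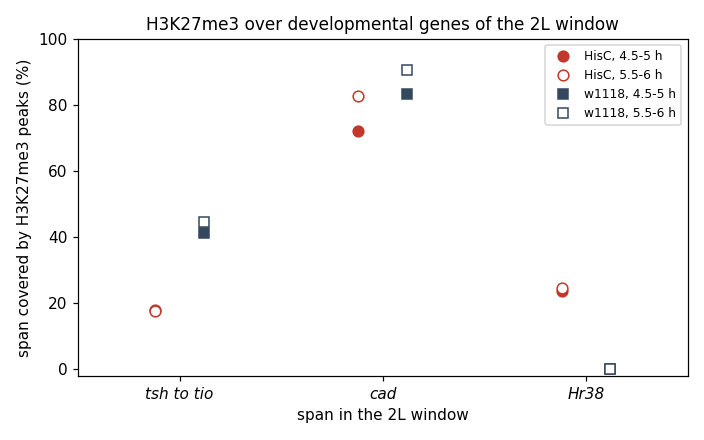
Percentage of 3 spans of the 2L window that lay under H3K27me3 peaks (vertical axis): from the start of tsh to the end of tio, the cad gene and the Hr38 gene. Circles are HisC and squares w1118, filled at 4.5-5 h and open at 5.5-6 h; HisC is at 18.1% and 17.5% from tsh to tio against 41.4% and 44.6% in w1118, and Hr38 is covered only in HisC.

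A few places were marked in every list. In 7 places, covering 65.581 kb, all 26 lists had a peak, whatever the mark, age or genotype. Of these, 6 lay on 3R between 121055 and 329790, where no gene is annotated, and were 4.147 to 16.325 kb long. The other was 12.537 kb on 2L (21863656 to 21876192), over the noncoding RNA genes CR44917 to CR44920 between tsh and tio. Over the whole genome 121 of 27105 places were in all lists. In the windows these places held 14.9%, 17.8% and 18.2% of the covered length of H3K4me3 in HisC and 22.8%, 24.4% and 24.5% in w1118. For H3K27ac it was 3.88% and 2.99% in HisC and 8.46% and 5.24% in w1118. Without them, in a comparison added after the values were seen, the H3K27ac share ratio was 2.71 and 2.77.

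Of the 1458 places, 447 (30.7%) were in HisC lists only, 252 (17.3%) in w1118 lists only and 759 in both. Over the whole genome 17.8% of 27105 places were in HisC lists only and 20.6% in w1118 lists only. Many of these rest on 1 list, since 375 places were in 1 list alone. Of places in at least 5 lists of one genotype and none of the other, 53 (3.64%) were HisC-only and 7 (0.480%) were w1118-only. Over the whole genome these were 259 (0.956%) and 135 (0.498%), so the w1118-only share was near that of the genome. The 53 were 11 on 2L, 24 on 3L and 18 on 3R. The one in the most lists, all 13 of HisC and 0 of w1118, lay on 3L at 25211039 to 25213242, between genes. Another pair, in 12 HisC lists each, lay on 2L at 22389092 to 22392229, between genes, and on 3R at 2351450 to 2353229, within Myo81F. All 6 marks were present at each of the 3. The 7 w1118-only places were in 5 w1118 lists each. Of these, 2 overlapped Dbp80, although its summed values were higher in HisC, 1 each overlapped Slmap, tsh, nolo and CG40228, and 1 lay between genes on 3L.

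Marks stacked at a larger share of the HisC places, in the windows as elsewhere. At 4.5-5 h, 14.3% of 1117 HisC places in the windows carried 5 or 6 marks, against 6.27% of 750 w1118 places, where the rest of the genome had 15.4% in HisC and 7.32% in w1118. At 5.5-6 h it was 10.6% of 1091 in HisC and 4.21% of 975 in w1118, where the rest had 14.1% in HisC and 10.1% in w1118. In the windows of 3L and 3R alone the shares were 14.1% and 10.1% in HisC and 5.95% and 3.29% in w1118. A place with a single mark was the most frequent kind in both genotypes, at 41.5% and 42.2% in HisC and 53.7% and 51.5% in w1118.

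The histone gene cluster (2L, 21416953 to 21541681, 124.729 kb) held 0 peaks in all 26 lists, of w1118 as well as HisC. The deletion could therefore not be checked by peaks over the deleted genes themselves. In HisC the last peak before the cluster ended no closer than 21400835 and the first beyond it began no closer than 21554172. In w1118 peaks reached 21412607 on one side and started from 21546565 on the other. The peaks nearest to the cluster were those of H2AK9ac in w1118 on the outer side and of H3K27me3 in w1118 on the centromere side.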

How the data were processed

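Histone marks were mapped by CUT&Tag in whole embryos. The series held 81 libraries in 36 groups, and 59 libraries in 26 groups stood behind the 26 peak lists used here, 2 or 3 per list. The other 22 libraries in 10 groups were not analysed here. The authors deposited each list as chromosome, start and end, with no score or height. Names of the deposited lists give narrow peaks for H3K4me3 and H3K27ac, broad peaks for the other marks, and removal of blacklisted regions. The submitters' processing notes name Bowtie2 2.3.4.2, Trim Galore 0.6.6, SAMtools 1.9, cutadapt 1.17, deepTools 3.3.1 and build dm6. How peaks were called and at what threshold, and how libraries were merged into 1 list, is not given in the sources used. Read depth per library is unknown. A deeper group can have a longer list, so shares of a list were compared rather than counts.

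From the positions were computed shares of peaks with 95% Clopper-Pearson intervals, overlaps of at least 1 bp, 10 kb bins, joined places, and covered length per gene. A ratio was called when at least 1.5-fold in the same direction at 4.5-5 and 5.5-6 h. Gene positions came from the RefSeq table for Release 6, with 17807 genes. It has no strand, so both gene ends replaced the planned promoter windows. A gene was marked by a peak within 500 bp of an end, or by H3K27me3 or H3K36me3 over 50% of its body. Lengths near ends were summed within 2000 bp. For each mark the 5 genes furthest towards each genotype in covered bp were named, ranked by the smaller gap of the last 2 times, leaving out CG and CR numbers. Also named were genes of 5 lists: classical genes of heterochromatin, very long genes, genes of unique DNA on 2L, chromatin genes and replication-dependent histone genes. The members and lists were chosen with earlier results of these data known. With 1 pooled list per group, no test was made. Alternatives were covered length, peak width, equal list sizes (keeping the widest peaks), joined peaks, other windows, bins, gene rules and overlaps. The interval code was tested on simulated intervals. Python 3.11.15, pandas 2.3.3, NumPy 2.4.6, SciPy 1.17.1 and Matplotlib 3.10.9 were used.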

Additional observations from a re-analysis of the deposited data

How the results depend on the processing

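H3K27ac and H3K36me3 kept a ratio of at least 1.5 in HisC over w1118 at both times under all 8 alternatives for the share of peaks, at 2.59 to 6.73 and 1.57 to 4.12. No called ratio changed direction. Of all recomputed results 123 stayed close and 49 moved. Taking 2 Mb windows gave H3K4me3 ratios of 0.905 (3.5-4 h) and 0.924 (5.5-6 h), under 1 where the 3 Mb windows were above it, and H3K27me3 ratios of 0.447 and 0.366. By covered length H3K27me3 came to 0.974 and 0.710. With 2L kept only on the centromere side of the histone genes, H3K27ac was 3.54 and 3.53, H3K36me3 2.50 and 2.52, and H3K27me3 at 5.5-6 h 0.382. With 3L and 3R only, chosen after seeing the data, the ratios were 2.06 and 1.51 for H3K4me3, 6.06 and 6.73 for H3K27ac, 3.93 and 4.12 for H3K36me3, and at 4.5-5 h 1.90 for H2AK9ac and 1.39 for H2BK16ac. Gene counts were small and moved. With ends of 1000 bp, H3K4me3 was HisC-only at 15 genes and w1118-only at 4, H2BK16ac HisC-only at 23, and w1118-only genes numbered 33 for H3K27ac and 6 for H2AK9ac. At 25% of the body, 5 genes were HisC-only for H3K36me3 and 5 for H3K27me3. With equal list sizes, H3K4me3 was HisC-only at 5 genes and w1118-only at 17. With peaks of at least 500 bp, H3K4me3 was w1118-only at 12 genes, H2AK9ac HisC-only at 5 and w1118-only at 6, and H2BK16ac HisC-only at 7. In 5 kb bins, HisC-only bins numbered 101 for H2AK9ac and 112 for H2BK16ac, and w1118-only bins 46 for H3K27ac, 37 for H2AK9ac, 42 for H2BK16ac and 37 for H3K27me3. Smaller bins are more numerous, 1797 in the windows. With equal list sizes, HisC-only bins numbered 21 for H3K4me3, 67 for H3K36me3 and 13 for H3K27me3. The w1118-only bins then numbered 13 for H3K4me3 and 34 for H3K27me3. The cut to equal sizes kept the widest peaks, so list length and peak width changed together. Requiring 50% of a peak to be covered, also chosen after seeing the data, w1118 overlapped 13.0% of HisC H3K27ac and 21.9% of HisC H3K36me3 members at 4.5-5 h. HisC then overlapped 36.9% and 36.8% of w1118 H3K27ac and 54.7% and 49.2% of w1118 H3K36me3 members. The cause of the moves was not tested.

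No paired analysis was possible because each list pools the libraries of its group, and no fit without a replicate was made, as these lists hold no single libraries. Peak heights and read depth are unknown, so a missing peak and one below the threshold look alike.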
